A study of Danio rerio with 12 samples.

Results

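The genes described here are those of phototransduction, the biochemical cascade by which rods and cones turn light into an electrical signal, together with the best known genes of the visual cycle. They were chosen by gene name from the gene table of a study of whole zebrafish larvae exposed to bepridil. The names were those beginning with pde6, cnga or cngb followed by a digit, guca1, gucy2, gnat1, gnat2, gngt1, gngt2, grk1, grk7, arr3, rcvrn, prph2, rom1, rgs9, rpe65 and rlbp1, and the genes gc2, gc3, saga, sagb, slc24a1 and slc24a2. The rule found 55 of the 25099 genes in the table. Of these, 54 had enough counts to be tested. The remaining member, cnga5, had 0 to 4 counts per library.

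Phototransduction begins when light changes an opsin, which activates the G protein transducin. Transducin activates the cyclic GMP phosphodiesterase PDE6, cyclic GMP falls, and the cyclic nucleotide-gated cation channel of the outer segment closes. The cell recovers when rhodopsin kinases and arrestin silence the opsin, the RGS9 complex silences transducin, and guanylate cyclases remake cyclic GMP under the control of calcium-sensing activator proteins. Calcium enters through the same channel and leaves through a sodium, calcium and potassium exchanger, so it reports the state of the channel back to the cyclases and kinases. Rods and cones use separate paralogs for most of these steps. The visual cycle then regenerates the retinal chromophore in the retinal pigment epithelium and in Müller glia. In zebrafish the cascade is in place in the larval retina, which at this stage sees mainly with cones, and parts of it are also used in the pineal gland.

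The larvae were of the AB strain and were sampled at 120 hours post fertilization, and their tissue is labelled embryo. Bepridil, a calcium channel blocker formerly given for angina, was applied at 0, 250, 750 or 1295 ng/mL, with 15 larvae pooled for each sample and 3 samples at each dose. The 0 ng/mL samples were the controls, and the labels give no genotype other than the strain. The labels do not say whether the 3 samples of a dose came from separate clutches or tanks, so the p-values below rest on sample-to-sample spread that could be no more than technical. The values are reads assigned to each gene as deposited, given here as CPM, the counts of each library scaled to a common total with its TMM factor, which corrects for differences in library makeup. Total counts ran from 15571556 to 18284169 per library. All 3 doses were compared with the same control libraries, so a shift in the controls enters each of these comparisons.

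A pair of libraries stood apart in these genes. The same positions were not counted over all genes, so whether they are particular to these genes was not tested. Control replicate 3 was the highest of the 3 controls in 48 of the 54 tested members, among them 13 of 13 cone members and 10 of 11 rod members. The 1295 ng/mL replicate 2 was the lowest of its group in 35 members, among them 12 of 13 cone members but only 4 of 11 rod members. Calls of members at 1295 against 0 ng/mL that were lost without either library are given with the value without it. The summed level of the 45 members expressed mainly in photoreceptors was 1755, 1427 and 2553 CPM at 0 ng/mL, 2607, 2862 and 2565 CPM at 250 ng/mL, 2592, 2456 and 2992 CPM at 750 ng/mL, and 1086, 652.6 and 1088 CPM at 1295 ng/mL. The libraries at 1295 ng/mL lay below each of the other 9, and control replicate 3 lay within the range of the 250 and 750 ng/mL libraries while the other controls lay below it.

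Phototransduction genes fell together at the highest dose. At 1295 against 0 ng/mL, 40 of the 54 tested members (74.1%) fell at an adjusted p under 0.05, where 22.2% of all 21581 tested genes fell. None rose, whereas 18.8% of all genes rose. In edgeR 0 members were higher at an unadjusted p under 0.05, where 5031 of 21581 genes were higher. DESeq2 and limma-voom also called 0 members higher. The 45 photoreceptor members had a median log2 fold change of -1.11, against -0.02 for all tested genes, and 39 of them fell. In whole larvae, fewer photoreceptors and less of each RNA per photoreceptor cannot be told apart. Without control replicate 3 the number that fell was 29 and the median of the photoreceptor members was -0.84. In that fit 3723 of 21760 genes fell, against 4790 of 21581 with all libraries. Without control replicate 3 and the 1295 ng/mL replicate 2, a choice made after the data had been seen, 24 members fell and the median was -0.64. There 2746 of 21738 genes fell.

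At the lower doses most members had positive log2 fold changes, and few passed the test. At 250 against 0 ng/mL, 8 of 54 members (14.8%) rose and 1 (1.85%) fell, while 6.03% of all genes rose and 4.48% fell. The genes that rose were pde6h, pde6a, pde6b, pde6g, guca1d, guca1e, grk1b and rom1b, and the gene that fell was rpe65b. At 750 against 0 ng/mL, pde6h, pde6g, guca1e and rom1b rose (7.41% of members, against 4.2% of all genes). No member fell at 750 ng/mL, where 2.14% of all genes fell. In edgeR 25 members were higher and 1 lower at an unadjusted p under 0.05, where 2760 of 21581 genes were higher and 1882 lower. DESeq2 and limma-voom also called 0 members lower. The median log2 fold change of the photoreceptor members was 0.44 at 250 ng/mL and 0.42 at 750 ng/mL, against 0.04 and 0.02 for all genes. Of the 45, 41 and 42 had positive values, as did 12077 and 11387 of the 21581 tested genes. How many members passed varied with single libraries, both controls and treated ones. Leaving out 250 ng/mL replicate 1, 2 or 3 left 5, 4 and 4 photoreceptor members higher at 250 ng/mL (8 with all libraries). Leaving out 750 ng/mL replicate 1, 2 or 3 left 2, 3 and 2 higher at 750 ng/mL (4 with all libraries). Over all genes these fits called 973, 897 and 704 higher at 250 ng/mL, and 622, 690 and 494 at 750 ng/mL. Without control replicate 3, 25 members rose at 250 ng/mL and 19 at 750 ng/mL, with photoreceptor medians of 0.73 and 0.69, and without control replicate 1 the counts were 3 and 1. Over all genes, 1013 of 21760 rose at 250 ng/mL and 709 at 750 ng/mL without control replicate 3. Without control replicate 1 these were 636 and 428 of 21763, against 1302 and 906 of 21581 with all libraries. The 17 members that gained a call at 250 ng/mL without control replicate 3 were arr3a, cngb1a, cngb3.1, gnat1, gnat2, gngt1, grk7a, guca1b, gucy2f, pde6c, prph2b, rcvrn2, rcvrn3, rgs9a, rlbp1b, rom1a and sagb. At 750 ng/mL 15 gained one, namely cngb3.1, gnat1, gnat2, gngt1, grk1b, guca1b, pde6a, pde6b, prph2b, rcvrn2, rcvrn3, rgs9a, rlbp1b, saga and sagb. Where a lower dose is said below not to have passed for one of these, that holds with all libraries.

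Taking the doses together, 46 of the 54 members (85.2%) differed somewhere among the 4 doses by a joint test of the 3 dose terms, against 55.2% of all tested genes. The 46 included 11 of 11 rod members, 12 of 13 cone members, 18 of 21 photoreceptor members that are shared by both cell types or were not assigned, and 4 of 5 visual cycle members. Of the 4 tested members expressed mainly outside photoreceptors, gucy2c differed. By the calls at the 3 doses, 32 members fell at 1295 ng/mL with no call at 250 or 750 ng/mL, 4 rose at 250 and 750 ng/mL and fell at 1295 ng/mL, 4 rose at 250 ng/mL and fell at 1295 ng/mL, 1 fell at 250 ng/mL alone, and 13 had no call. A missing call at a lower dose does not show that a gene kept its control level there. The same patterns were not counted over all genes, so whether they are particular to the members was not tested.

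**Figure D1:**
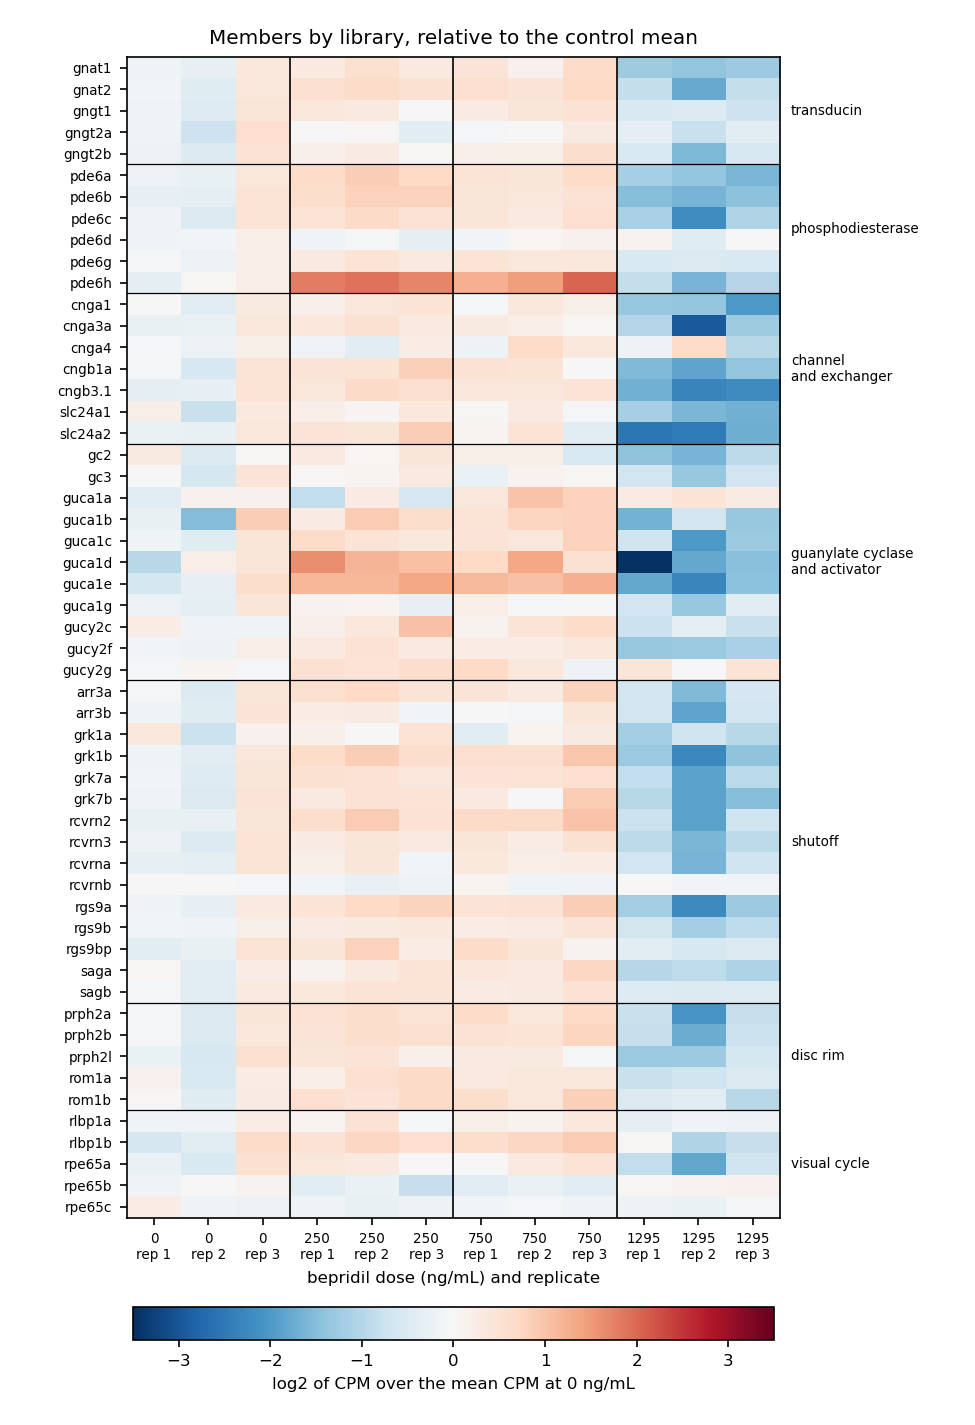
Level of each of the 54 tested members (rows, grouped by role) in each of the 12 libraries (columns, by bepridil dose in ng/mL and replicate), as the log2 of its CPM over its mean CPM at 0 ng/mL. Most rows are blue in the 3 libraries at 1295 ng/mL and pale red at 250 and 750 ng/mL, while control replicate 3 is redder than the other controls in most rows.

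Transducin alpha subunit genes fell at 1295 ng/mL in both the rod and the cone form. The rod alpha subunit gene gnat1 was at 77.6, 71.2 and 111 CPM at 0 ng/mL, 111, 127 and 109 at 250 ng/mL, 118, 96 and 135 at 750 ng/mL, and 36.5, 33.3 and 35.8 at 1295 ng/mL. Its 3 libraries at 1295 ng/mL were close to each other and lay far below all controls (log2 fold change -1.30, SE 0.16, adjusted p = 3.41e-05). At 250 and 750 ng/mL the log2 fold changes of gnat1 were 0.42 and 0.42 (adjusted p = 0.0894 and 0.114), and both groups overlapped control replicate 3. The cone alpha subunit gene gnat2 was at 249, 198 and 348 CPM at 0 ng/mL, 388, 410.2 and 385 at 250 ng/mL, 397, 363 and 432 at 750 ng/mL, and 149.6, 77.9 and 147 at 1295 ng/mL. It fell at 1295 ng/mL (log2 fold change -1.08, SE 0.22, adjusted p = 0.00118), with replicate 2 far below replicates 1 and 3. At 250 and 750 ng/mL its values were 0.58 and 0.59 and did not pass (adjusted p = 0.0964 and 0.121). Without control replicate 3, gnat1 rose by 0.64 and gnat2 by 0.82 at 250 ng/mL (adjusted p = 0.0113 and 0.0327).

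The small gamma subunits of transducin had log2 fold changes nearer to 0, and differences between members were not tested here or below. The rod subunit gene gngt1 averaged 30.8 ± 9.8 CPM at 0 ng/mL, 36.8 ± 5.5 at 250 ng/mL, 40.9 ± 3 at 750 ng/mL and 20.5 ± 1.7 at 1295 ng/mL (SD, n = 3 each) and fell by 0.59 at 1295 ng/mL (SE 0.18, adjusted p = 0.0175). The cone subunit gene gngt2b averaged 128 ± 47.1 CPM at 0 ng/mL, 144 ± 13.3 at 250 ng/mL, 163 ± 27.8 at 750 ng/mL and 72.6 ± 25.4 at 1295 ng/mL and fell by 0.82 (SE 0.25, adjusted p = 0.0171). Its duplicate gngt2a averaged 26.3 ± 12.1 CPM at 0 ng/mL, 24.6 ± 3.7 at 250 ng/mL, 28.2 ± 4.1 at 750 ng/mL and 18.8 ± 3 at 1295 ng/mL, and its log2 fold change of -0.48 did not pass (SE 0.24, adjusted p = 0.125). Of these, gngt1 and gngt2b lost their calls without control replicate 3, with values of -0.31 and -0.48. The call of gngt1 was also lost without 1295 ng/mL replicate 3 (-0.52) and that of gngt2b without 1295 ng/mL replicate 2 (-0.55).

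PDE6, the effector enzyme of the cascade, held the member with the largest rise at the lower doses. In rods it consists of the catalytic subunits encoded by pde6a and pde6b and an inhibitory subunit encoded by pde6g, and in cones of the catalytic subunit encoded by pde6c and the inhibitory subunit encoded by pde6h. The cone inhibitory subunit gene pde6h was at 4.91, 6.31 and 7.21 CPM at 0 ng/mL, 21.4, 22.8 and 20.1 at 250 ng/mL, 14.6, 17.1 and 25.3 at 750 ng/mL, and 3.47, 1.98 and 3.03 at 1295 ng/mL. All libraries at 250 and 750 ng/mL lay above all controls, and all at 1295 ng/mL lay below them. It rose by 1.80 on the log2 scale at 250 ng/mL (SE 0.21, adjusted p = 0.000115) and by 1.63 at 750 ng/mL (SE 0.21, adjusted p = 0.000484), and it fell by 1.11 at 1295 ng/mL (SE 0.24, adjusted p = 0.00236). Both rises of pde6h and its fall held in each fit that left out 1 library. With control replicate 3 and 1295 ng/mL replicate 2 both left out, its value at 1295 ng/mL was -0.79 (adjusted p = 0.0573).

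The catalytic subunit of cones did not share the rise of pde6h at the test's threshold. The cone catalytic subunit gene pde6c was at 129, 99.7 and 195 CPM at 0 ng/mL, 198, 224 and 201 at 250 ng/mL, 189.6, 177 and 211 at 750 ng/mL, and 64.5, 31.5 and 67.9 at 1295 ng/mL. Its 250 ng/mL libraries lay just above control replicate 3 and its 750 ng/mL libraries overlapped it, with log2 fold changes of 0.55 and 0.45 (adjusted p = 0.154 and 0.301). At 1295 ng/mL it fell by 1.37 (SE 0.25, adjusted p = 0.000612), with replicate 2 lowest. The ratio of pde6h to pde6c reads, which is not corrected for gene length and is used only to compare libraries, was 0.0382, 0.0633 and 0.0369 at 0 ng/mL, 0.108, 0.102 and 0.0999 at 250 ng/mL, 0.0772, 0.0962 and 0.12 at 750 ng/mL, and 0.0537, 0.0626 and 0.0446 at 1295 ng/mL. The libraries at 250 and 750 ng/mL were above all controls in this ratio, and those at 1295 ng/mL lay within the range of the controls. The difference between the genes was not tested.

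The rod catalytic subunits moved as a pair. The gene pde6a was at 16.6, 16 and 25.1 CPM at 0 ng/mL, 30.3, 35.1 and 31 at 250 ng/mL, 27.1, 25.9 and 29.8 at 750 ng/mL, and 8.67, 7.51 and 6.36 at 1295 ng/mL. The gene pde6b was at 16.9, 16.1 and 28.5 CPM at 0 ng/mL, 31.1, 36.2 and 35.9 at 250 ng/mL, 27.7, 27 and 28.9 at 750 ng/mL, and 7.24, 6.58 and 7.6 at 1295 ng/mL. In both, every library at 250 ng/mL lay above every control and every library at 1295 ng/mL below. At 250 ng/mL pde6a rose by 0.74 (SE 0.15, adjusted p = 0.00735) and pde6b by 0.75 (SE 0.17, adjusted p = 0.0108). The 750 ng/mL values of 0.52 and 0.44 did not pass (adjusted p = 0.0609 and 0.137). At 1295 ng/mL pde6a fell by 1.36 (SE 0.17, adjusted p = 4.34e-05) and pde6b by 1.52 (SE 0.18, adjusted p = 3.57e-05). The rise of pde6a held in each fit that left out 1 library, and that of pde6b was lost without control replicate 1, where it was 0.62 (adjusted p = 0.0579).

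The inhibitory subunit of rods had a smaller log2 fold change at the highest dose than the catalytic ones. The gene pde6g was at 35.3, 32.3 and 43.4 CPM at 0 ng/mL, 47.3, 51.2 and 46.8 at 250 ng/mL, 52, 48.6 and 48.3 at 750 ng/mL, and 25.6, 26.1 and 25.6 at 1295 ng/mL. At each dose above 0 ng/mL its libraries were close together, and the 1295 ng/mL libraries were the lowest. It rose by 0.39 at 250 ng/mL (SE 0.10, adjusted p = 0.0279) and 0.42 at 750 ng/mL (SE 0.10, adjusted p = 0.0246), and it fell by 0.52 at 1295 ng/mL (SE 0.11, adjusted p = 0.00141). Its rise at 250 ng/mL was lost without control replicate 1 or 2, any of the 250 ng/mL libraries or 1295 ng/mL replicate 2, with values of 0.30 to 0.41, and that at 750 ng/mL was lost without control replicate 1 or 2 or any of the 750 ng/mL libraries. The ratio of pde6g to pde6b reads was 2.08, 2 and 1.53 at 0 ng/mL, 1.52, 1.42 and 1.3 at 250 ng/mL, 1.88, 1.8 and 1.67 at 750 ng/mL, and 3.54, 3.96 and 3.37 at 1295 ng/mL. Its libraries at 1295 ng/mL lay above all others. The ratio of pde6a to pde6b reads averaged 0.953 ± 0.061 at 0 ng/mL, 0.936 ± 0.063 at 250 ng/mL, 0.99 ± 0.037 at 750 ng/mL and 1.06 ± 0.19 at 1295 ng/mL (SD, n = 3 each), and its libraries overlapped across the doses.

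**Figure D2:**
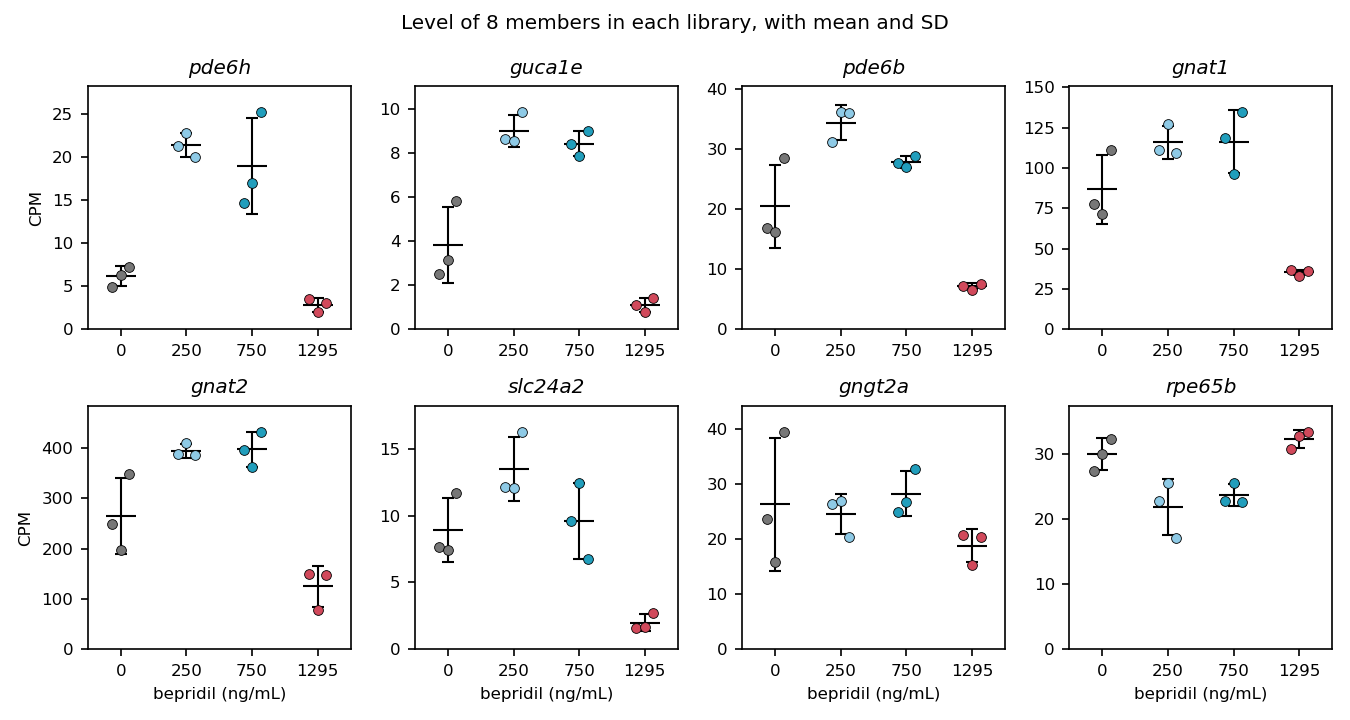
Level in CPM (vertical axes, starting at 0) of 8 members in each of the 12 libraries by bepridil dose in ng/mL, where points are libraries and bars are the mean and SD of 3. The genes pde6h and guca1e stand above all controls at 250 and 750 ng/mL and below them at 1295 ng/mL, gnat1, gnat2, pde6b and slc24a2 are lowest at 1295 ng/mL, and gngt2a and rpe65b overlap the controls there.

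The outer segment channel is built of A and B subunits, with separate ones in rods and cones, and it held some of the largest falls. The rod A subunit gene cnga1 was at 4.17, 3.28 and 5.24 CPM at 0 ng/mL, 4.79, 5.56 and 5.93 at 250 ng/mL, 4.03, 5.57 and 4.87 at 750 ng/mL, and 1.67, 1.65 and 1.05 at 1295 ng/mL. The rod B subunit gene cngb1a was at 17.8, 12.6 and 25.5 CPM at 0 ng/mL, 25.4, 25.9 and 33.5 at 250 ng/mL, 26.6, 25.9 and 18.8 at 750 ng/mL, and 6.44, 5.2 and 7.17 at 1295 ng/mL. Both lay below all controls at 1295 ng/mL, by 1.54 (SE 0.24, adjusted p = 0.000212) and 1.57 (SE 0.23, adjusted p = 0.000148). Of the cone subunits, cngb3.1 was at 3.09, 3.22 and 5.52 CPM at 0 ng/mL, 5.15, 6.24 and 5.77 at 250 ng/mL, 5.18, 5.21 and 5.54 at 750 ng/mL, and 1.24, 0.79 and 0.865 at 1295 ng/mL. It fell at 1295 ng/mL by 2.02 (SE 0.27, adjusted p = 6.48e-05), the second largest fall among the members. The cone A subunit gene cnga3a averaged 22.4 ± 6.2 CPM at 0 ng/mL, 29.8 ± 2.3 at 250 ng/mL, 25.7 ± 2.4 at 750 ng/mL and 7.77 ± 4.3 at 1295 ng/mL and fell by 1.52 (SE 0.30, adjusted p = 0.00114). At 250 and 750 ng/mL the log2 fold changes of these 4 genes were 0.36 to 0.60 and 0.19 to 0.43 and did not pass, the smallest adjusted p being 0.078 for cngb1a at 250 ng/mL.

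The exchanger gene slc24a2, classed here with cones for its export of calcium from the cone outer segment, had the largest fall of the 54 members. In whole larvae its reads cannot be assigned to cones, and it alone of the cone members was not lowest in 1295 ng/mL replicate 2. It was at 7.66, 7.46 and 11.7 CPM at 0 ng/mL, 12.2, 12.1 and 16.3 at 250 ng/mL, 9.62, 12.5 and 6.76 at 750 ng/mL, and 1.55, 1.65 and 2.72 at 1295 ng/mL. Its libraries at 1295 ng/mL lay below all others (log2 fold change -2.18, SE 0.28, adjusted p = 6.06e-05). Those at 250 ng/mL lay above the controls by less than the test could call, and those at 750 ng/mL overlapped them (0.59 and 0.10, adjusted p = 0.116 and 0.852). The rod exchanger gene slc24a1 averaged 3.2 ± 1.2 CPM at 0 ng/mL, 3.77 ± 0.37 at 250 ng/mL, 3.47 ± 0.48 at 750 ng/mL and 1.16 ± 0.23 at 1295 ng/mL and fell by 1.47 (SE 0.28, adjusted p = 0.000993). Its control replicate 2 was lower than the other controls, yet all of its 1295 ng/mL libraries were lower still.

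Guanylate cyclases remake cyclic GMP, and the photoreceptor forms fell at 1295 ng/mL. The gene gucy2f was at 7.03, 6.74 and 8.96 CPM at 0 ng/mL, 9.58, 10.7 and 9.68 at 250 ng/mL, 9.1, 9.04 and 9.99 at 750 ng/mL, and 3.03, 3.09 and 3.46 at 1295 ng/mL. It fell by 1.24 (SE 0.15, adjusted p = 3.78e-05) and its libraries at 1295 ng/mL were close together. The gene gc2 averaged 2.46 ± 0.67 CPM at 0 ng/mL, 3 ± 0.37 at 250 ng/mL, 2.45 ± 0.64 at 750 ng/mL and 1.01 ± 0.26 at 1295 ng/mL and fell by 1.28 (SE 0.29, adjusted p = 0.00303). The third cyclase, gc3, averaged 17 ± 6 CPM at 0 ng/mL, 18.9 ± 2 at 250 ng/mL, 16.8 ± 2.1 at 750 ng/mL and 9.37 ± 2.3 at 1295 ng/mL and fell by 0.85 (SE 0.23, adjusted p = 0.00771), a call that was lost without control replicate 3, where the value was -0.57. At 250 and 750 ng/mL these 3 genes had log2 fold changes between -0.02 and 0.40, none of which passed.

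The guanylate cyclase activating proteins switch the cyclases on when calcium is low, and their genes did not move alike. The gene guca1e was at 2.51, 3.16 and 5.8 CPM at 0 ng/mL, 8.62, 8.53 and 9.85 at 250 ng/mL, 8.41, 7.84 and 9.01 at 750 ng/mL, and 1.11, 0.79 and 1.42 at 1295 ng/mL. All of its 250 and 750 ng/mL libraries lay above the controls and all of its 1295 ng/mL libraries below. It rose by 1.23 at 250 ng/mL (SE 0.24, adjusted p = 0.00432) and by 1.13 at 750 ng/mL (SE 0.24, adjusted p = 0.00978), and it fell by 1.78 at 1295 ng/mL (SE 0.30, adjusted p = 0.000422). The rise at 750 ng/mL was lost without control replicate 1 (0.90, adjusted p = 0.0509) and in a fit of 0 and 750 ng/mL alone (adjusted p = 0.0546), while the rise at 250 ng/mL and the fall held in each fit that left out 1 library. The gene guca1d was at 0.343, 0.789 and 0.901 CPM at 0 ng/mL, 2.09, 1.55 and 1.4 at 250 ng/mL, 1.09, 1.74 and 0.974 at 750 ng/mL, and 0.0619, 0.198 and 0.247 at 1295 ng/mL. At these low levels it rose at 250 ng/mL (log2 fold change 1.30, SE 0.36, adjusted p = 0.0328) and fell at 1295 ng/mL (log2 fold change -1.96, SE 0.55, adjusted p = 0.011). Its rise was lost without control replicate 1 or 2 or any 250 ng/mL library, and its fall without control replicate 3 or 1295 ng/mL replicate 1, with fold changes of -1.69 and -1.57.

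Other activator genes had no call at the lower doses. The gene guca1c was at 3.83, 3.16 and 5.69 CPM at 0 ng/mL, 6.64, 5.93 and 5.43 at 250 ng/mL, 5.82, 5.51 and 7.43 at 750 ng/mL, and 2.6, 1.05 and 1.73 at 1295 ng/mL, and it fell at 1295 ng/mL (log2 fold change -1.23, SE 0.28, adjusted p = 0.00337). The gene guca1b was at 1.31, 0.546 and 2.82 CPM at 0 ng/mL, 1.92, 2.9 and 2.41 at 250 ng/mL, 2.19, 2.63 and 2.74 at 750 ng/mL, and 0.495, 0.988 and 0.618 at 1295 ng/mL. Its control values were widely spread, and its log2 fold change of -1.17 at 1295 ng/mL did not pass (SE 0.47, adjusted p = 0.0583). The gene guca1g was at 1.71, 1.58 and 2.65 CPM at 0 ng/mL, 2.15, 2.1 and 1.62 at 250 ng/mL, 2.3, 1.92 and 1.95 at 750 ng/mL, and 1.24, 0.79 and 1.54 at 1295 ng/mL, with a value of -0.73 that did not pass (SE 0.28, adjusted p = 0.0507). The gene guca1a was at 0.514, 0.728 and 0.732 CPM at 0 ng/mL, 0.359, 0.804 and 0.448 at 250 ng/mL, 0.864, 1.32 and 1.16 at 750 ng/mL, and 0.805, 0.922 and 0.803 at 1295 ng/mL. It was the photoreceptor member with the only positive value at 1295 ng/mL (log2 fold change 0.35, SE 0.34, adjusted p = 0.42), and its libraries there lay above all controls but by less than the test could call. Several of these genes are counted in few reads and are close paralogs, and how reads shared between them were counted is not given.

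Shutoff of the opsin runs through kinases, which phosphorylate it, and arrestins, which cap it. The cone kinase gene grk7a was at 39.9, 31.2 and 57.4 CPM at 0 ng/mL, 62.3, 61.3 and 56.1 at 250 ng/mL, 58.9, 59.3 and 64 at 750 ng/mL, and 23.4, 11.6 and 22.2 at 1295 ng/mL, and it fell at 1295 ng/mL by 1.16 (SE 0.22, adjusted p = 0.000929). Its less abundantly counted duplicate grk7b was at 2.23, 1.7 and 3.32 CPM at 0 ng/mL, 3.05, 3.46 and 3.36 at 250 ng/mL, 3.05, 2.4 and 4.51 at 750 ng/mL, and 1.24, 0.658 and 0.865 at 1295 ng/mL, and it fell by 1.38 (SE 0.33, adjusted p = 0.00399). Both kinases had their lowest library in 1295 ng/mL replicate 2 and their highest control in replicate 3. The gene grk1b, a kinase of cones in zebrafish, was at 34.5, 29.7 and 50.4 CPM at 0 ng/mL, 60.1, 69.3 and 58.4 at 250 ng/mL, 57.3, 56.8 and 74.2 at 750 ng/mL, and 15.7, 8.03 and 14.3 at 1295 ng/mL. All its libraries at 250 and 750 ng/mL lay above all controls. It rose by 0.71 at 250 ng/mL (SE 0.21, adjusted p = 0.0392), had a value of 0.72 at 750 ng/mL that did not pass (SE 0.21, adjusted p = 0.0519), and fell by 1.59 at 1295 ng/mL (SE 0.22, adjusted p = 0.000101). Its rise was lost without control replicate 1 or 2 or any 250 ng/mL library, with values of 0.56 to 0.76. The rod kinase gene grk1a was at 6.28, 2.85 and 5.3 CPM at 0 ng/mL, 5.45, 4.82 and 6.72 at 250 ng/mL, 3.63, 5.15 and 6.03 at 750 ng/mL, and 2.1, 2.96 and 2.47 at 1295 ng/mL. It fell by 0.94 (SE 0.28, adjusted p = 0.0145), a call lost without control replicate 1 (-0.70), control replicate 3 (-0.87) or 1295 ng/mL replicate 1 (-0.83).

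Both rod arrestin genes fell. The gene saga was at 21, 15.6 and 24.3 CPM at 0 ng/mL, 22, 25.9 and 28.3 at 250 ng/mL, 26.2, 26 and 33.3 at 750 ng/mL, and 10.2, 11 and 9.7 at 1295 ng/mL. It fell at 1295 ng/mL by 0.98 (SE 0.16, adjusted p = 0.00033). The gene sagb was at 38.1, 30.3 and 49.4 CPM at 0 ng/mL, 50.5, 54.6 and 53.9 at 250 ng/mL, 47.8, 48.7 and 55.2 at 750 ng/mL, and 28.7, 28.1 and 28.5 at 1295 ng/mL. Its fall was 0.47 (SE 0.14, adjusted p = 0.0135), and without control replicate 3 it was 0.27 and no longer passed. The 3 libraries of sagb at 1295 ng/mL were nearly equal and lay just below the lowest control. The cone arrestin gene arr3a, which in zebrafish is expressed in red and green cones, averaged 261 ± 80.3 CPM at 0 ng/mL, 389 ± 35.5 at 250 ng/mL, 378 ± 61.3 at 750 ng/mL and 144 ± 47 at 1295 ng/mL and fell by 0.86 (SE 0.23, adjusted p = 0.00826). The other cone arrestin gene, arr3b, which is expressed in blue and ultraviolet cones, averaged 81.3 ± 26.3 CPM at 0 ng/mL, 91.1 ± 12.6 at 250 ng/mL, 89.8 ± 16.5 at 750 ng/mL and 41.8 ± 16.7 at 1295 ng/mL and fell by 0.96 (SE 0.27, adjusted p = 0.00977). Both cone arrestin calls were lost without control replicate 3, where the values were -0.60 and -0.67. The ratio of arr3a to arr3b reads averaged 3.21 ± 0.16 at 0 ng/mL, 4.29 ± 0.34 at 250 ng/mL, 4.21 ± 0.096 at 750 ng/mL and 3.54 ± 0.39 at 1295 ng/mL (SD, n = 3 each). All 250 and 750 ng/mL libraries exceeded all controls in this ratio, and the 1295 ng/mL libraries overlapped the controls.

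RGS9 speeds the shutoff of transducin, and its genes also fell. The gene rgs9a was at 22.2, 20.4 and 31.7 CPM at 0 ng/mL, 34.3, 40.4 and 42.7 at 250 ng/mL, 34.8, 35.3 and 45 at 750 ng/mL, and 10.7, 5.27 and 10.3 at 1295 ng/mL. It fell by 1.50 at 1295 ng/mL (SE 0.22, adjusted p = 0.00016), with replicate 2 lowest. Its 250 and 750 ng/mL libraries were all above the controls, but its values of 0.66 and 0.63 did not pass (adjusted p = 0.0528 and 0.0851). The duplicate rgs9b was at 9.66, 9.59 and 12 CPM at 0 ng/mL, 12.6, 13.2 and 13.5 at 250 ng/mL, 12.4, 12.7 and 14.1 at 750 ng/mL, and 6.69, 4.54 and 5.62 at 1295 ng/mL, and it fell by 0.89 (SE 0.15, adjusted p = 0.000369). The gene rgs9bp, which encodes the membrane anchor of RGS9, averaged 2.54 ± 0.88 CPM at 0 ng/mL, 3.63 ± 0.74 at 250 ng/mL, 3.38 ± 0.62 at 750 ng/mL and 1.83 ± 0.14 at 1295 ng/mL and its value of -0.47 did not pass (SE 0.26, adjusted p = 0.164).

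Recoverins restrain the opsin kinases when calcium is high. The genes rcvrn2, rcvrn3 and rcvrna fell at 1295 ng/mL, and rcvrnb did not pass. The gene rcvrn2 averaged 113 ± 32.6 CPM at 0 ng/mL, 182 ± 25.9 at 250 ng/mL, 195 ± 26.1 at 750 ng/mL and 55.7 ± 21.8 at 1295 ng/mL and fell by 1.02 (SE 0.25, adjusted p = 0.00459). The gene rcvrn3 averaged 186 ± 65.6 CPM at 0 ng/mL, 238 ± 10.9 at 250 ng/mL, 247 ± 24.3 at 750 ng/mL and 85.8 ± 21.4 at 1295 ng/mL and fell by 1.11 (SE 0.21, adjusted p = 0.000783). The gene rcvrna averaged 28.5 ± 9.7 CPM at 0 ng/mL, 32.7 ± 5.8 at 250 ng/mL, 34.7 ± 1.7 at 750 ng/mL and 14.9 ± 4.9 at 1295 ng/mL and fell by 0.93 (SE 0.24, adjusted p = 0.0062). The level of rcvrnb lay in a narrow range across all 12 libraries. It averaged 4 ± 0.1 CPM at 0 ng/mL, 3.54 ± 0.22 at 250 ng/mL, 3.84 ± 0.37 at 750 ng/mL and 3.85 ± 0.15 at 1295 ng/mL, with a log2 fold change of -0.06 (SE 0.15) at 1295 ng/mL.

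Peripherin and ROM1 shape the rims of outer segment discs, and all 5 of their genes fell at 1295 ng/mL, where 22.2% of all genes fell. The peripherin gene prph2a averaged 68.7 ± 21.8 CPM at 0 ng/mL, 99.2 ± 5.1 at 250 ng/mL, 103 ± 11.5 at 750 ng/mL and 31.9 ± 13.5 at 1295 ng/mL and fell by 1.11 (SE 0.26, adjusted p = 0.00389). Its duplicate prph2b averaged 78.1 ± 24 CPM at 0 ng/mL, 114 ± 7.2 at 250 ng/mL, 117 ± 12 at 750 ng/mL and 38.1 ± 12.7 at 1295 ng/mL and fell by 1.04 (SE 0.22, adjusted p = 0.00213). The peripherin-like gene prph2l averaged 4.26 ± 1.8 CPM at 0 ng/mL, 5.44 ± 0.54 at 250 ng/mL, 4.88 ± 0.64 at 750 ng/mL and 2.1 ± 0.59 at 1295 ng/mL and fell by 1.02 (SE 0.28, adjusted p = 0.00866), a call lost without control replicate 3 (-0.63). The ROM1 genes had smaller values. The gene rom1a averaged 25.2 ± 6.9 CPM at 0 ng/mL, 35.8 ± 5.4 at 250 ng/mL, 32.8 ± 1 at 750 ng/mL and 15.9 ± 1.7 at 1295 ng/mL and fell by 0.66 (SE 0.17, adjusted p = 0.00746). The gene rom1b averaged 14.6 ± 3.6 CPM at 0 ng/mL, 21.9 ± 1.6 at 250 ng/mL, 22.5 ± 3.3 at 750 ng/mL and 9.63 ± 1.9 at 1295 ng/mL. It rose by 0.58 at 250 ng/mL (SE 0.17, adjusted p = 0.0452) and 0.62 at 750 ng/mL (SE 0.17, adjusted p = 0.045) and fell by 0.61 at 1295 ng/mL (SE 0.18, adjusted p = 0.0153). Its calls at 250 and 750 ng/mL were close to the threshold and held in 4 and 3 of the 12 fits that left out 1 library. Its fall was lost without control replicate 3 (-0.44) or 1295 ng/mL replicate 3 (-0.46).

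**Figure D3:**
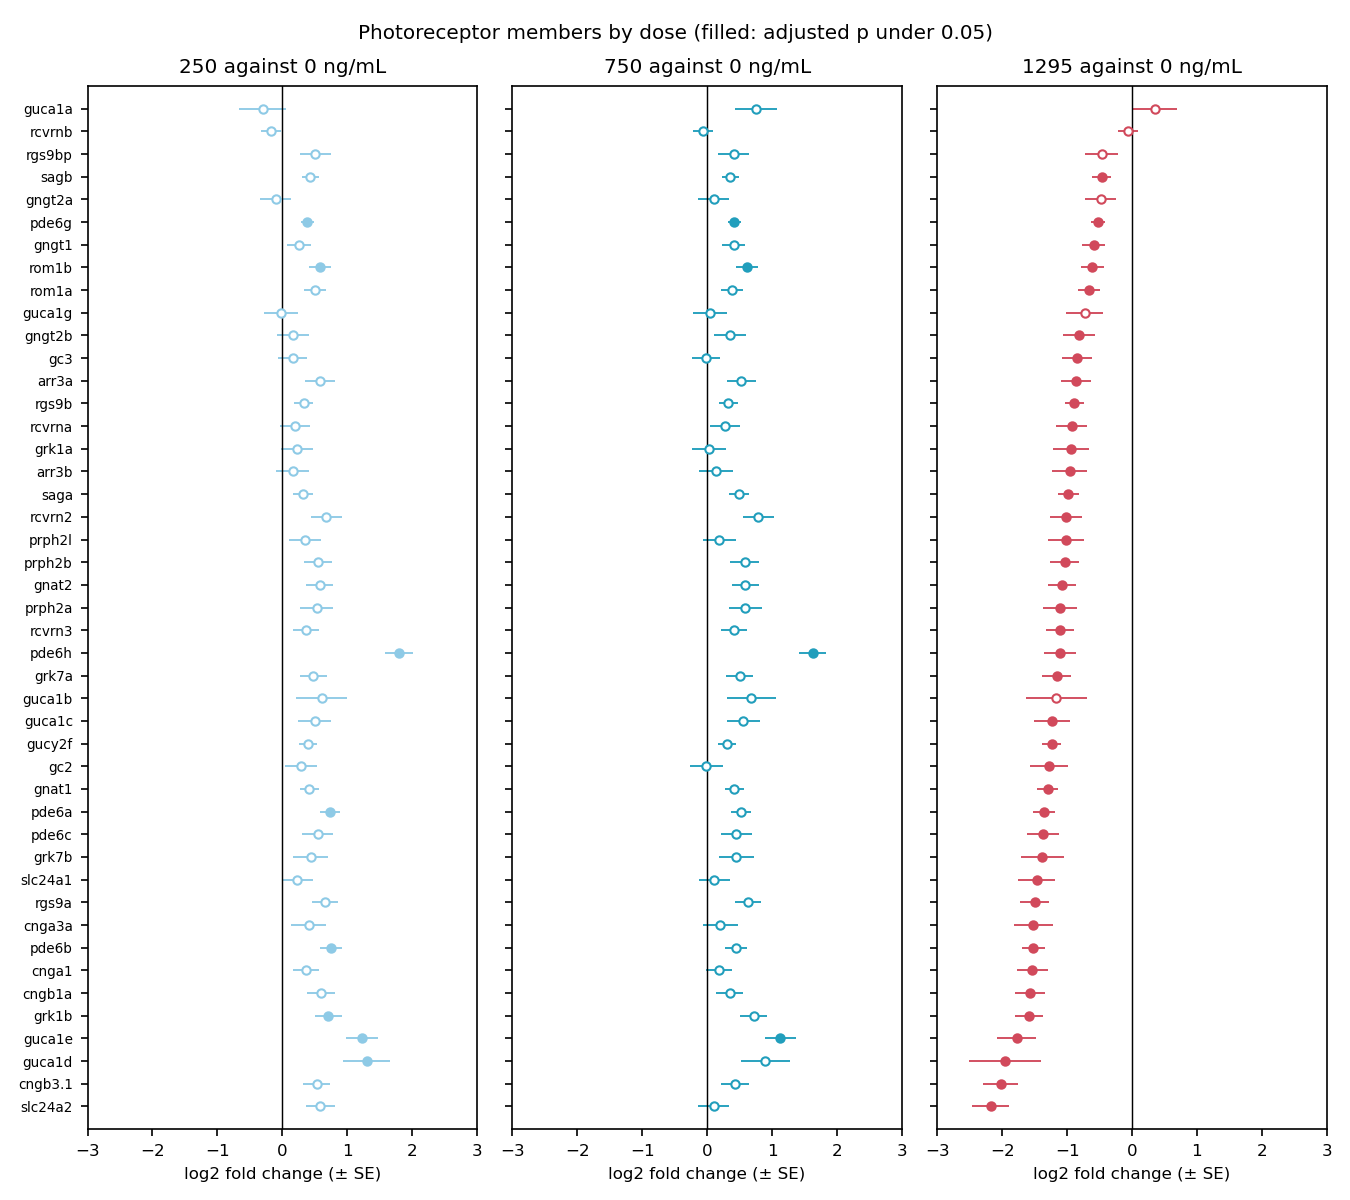
Log2 fold change with its standard error (horizontal axes) of the 45 photoreceptor members (rows, ordered by the value at 1295 ng/mL) at 250, 750 and 1295 ng/mL against 0 ng/mL, where filled points passed an adjusted p of 0.05. At 1295 ng/mL 44 of the 45 points lie left of 0 and 39 are filled, while at 250 and 750 ng/mL 41 and 42 lie right of 0 and 8 and 4 are filled.

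The visual cycle members were classed from textbook knowledge as genes of supporting cells such as the retinal pigment epithelium and Müller glia rather than of photoreceptors. In whole larvae the cells that express each of them were not identified. At 1295 against 0 ng/mL 1 of the 5 fell (20%, against 22.2% of all genes), and their median log2 fold change was -0.22. At 1295 against 750 ng/mL 3 of the 5 fell (60%, against 28.7% of all genes) and 1 rose, with a median of -0.46. Their difference from the photoreceptor members was not tested. Their summed level was 72.79, 72.02 and 94.49 CPM at 0 ng/mL, 79.18, 91.79 and 67.28 CPM at 250 ng/mL, 79.26, 83.17 and 88.41 CPM at 750 ng/mL, and 69.65, 69.14 and 73.66 CPM at 1295 ng/mL. These sums overlapped the controls at 250, 750 and 1295 ng/mL, while those at 1295 ng/mL lay below those at 750 ng/mL. On average 30 of 79.77 CPM at 0 ng/mL and 32.3 of 70.82 CPM at 1295 ng/mL came from rpe65b. At 1295 against 0 ng/mL it had the only positive log2 fold change of the 5, and the other 4 were negative. The isomerase gene rpe65a, the form of the pigment epithelium, averaged 10.1 ± 4.1 CPM at 0 ng/mL, 11.9 ± 1.8 at 250 ng/mL, 12.3 ± 1.9 at 750 ng/mL and 4.84 ± 1.8 at 1295 ng/mL. It fell by 1.05 at 1295 ng/mL (SE 0.28, adjusted p = 0.00822), and the call was lost without control replicate 3 (-0.68). Its paralog rpe65b averaged 30 ± 2.5 CPM at 0 ng/mL, 21.8 ± 4.3 at 250 ng/mL, 23.7 ± 1.7 at 750 ng/mL and 32.3 ± 1.4 at 1295 ng/mL. It fell by 0.46 at 250 ng/mL (SE 0.13, adjusted p = 0.0335) and had values of -0.34 at 750 ng/mL and 0.11 at 1295 ng/mL that did not pass. The fall at 250 ng/mL was lost without control replicate 2 or 3 or 250 ng/mL replicate 1 or 3.

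At 1295 against 750 ng/mL, rpe65b rose by 0.45 (SE 0.13, adjusted p = 0.0089). The paralog rpe65c averaged 6.32 ± 1.1 CPM at 0 ng/mL, 5.51 ± 0.19 at 250 ng/mL, 5.9 ± 0.13 at 750 ng/mL and 5.72 ± 0.37 at 1295 ng/mL, and none of its values passed. Cellular retinaldehyde-binding protein carries the chromophore, and in zebrafish rlbp1a is the Müller glia form and rlbp1b the pigment epithelium form. The gene rlbp1a averaged 28.8 ± 5.1 CPM at 0 ng/mL, 33.2 ± 6.8 at 250 ng/mL, 34 ± 3.2 at 750 ng/mL and 24.7 ± 1.6 at 1295 ng/mL, with a value of -0.22 at 1295 ng/mL (SE 0.15, adjusted p = 0.246). The gene rlbp1b averaged 4.61 ± 2.3 CPM at 0 ng/mL, 6.98 ± 0.52 at 250 ng/mL, 7.74 ± 0.73 at 750 ng/mL and 3.22 ± 1.4 at 1295 ng/mL, with a value of -0.51 (SE 0.31, adjusted p = 0.192). Neither passed against 0 ng/mL, and both fell against 750 ng/mL, by 0.46 and 1.26 (adjusted p = 0.0173 and 0.0025).

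Names alone brought in 5 members whose known roles lie mainly outside photoreceptors. Of these, 4 were tested, and they had no call at 1295 against 0 ng/mL, where 22.2% of all genes fell and 18.8% rose. The gene pde6d encodes a widely expressed protein that carries lipid-modified proteins, and it was at 10, 10.4 and 13 CPM at 0 ng/mL, 10.3, 10.6 and 8.84 at 250 ng/mL, 10.4, 11.7 and 12.4 at 750 ng/mL, and 12.1, 8.3 and 11.1 at 1295 ng/mL. Its log2 fold change at 1295 ng/mL was -0.09 (SE 0.15, adjusted p = 0.668). The gene gucy2c encodes in mammals a guanylate cyclase of the gut, and it was at 5.71, 4.37 and 4.28 CPM at 0 ng/mL, 5.39, 6.24 and 9.74 at 250 ng/mL, 5.24, 6.65 and 7.49 at 750 ng/mL, and 2.85, 3.75 and 2.78 at 1295 ng/mL. Its libraries at 1295 ng/mL lay below all controls, with a value of -0.62 against 0 ng/mL that was close to the threshold (SE 0.24, adjusted p = 0.0539). Without 1295 ng/mL replicate 2 this value passed, at -0.76 (adjusted p = 0.0479). Against 750 ng/mL gucy2c fell by 1.05 (SE 0.24, adjusted p = 0.00197). The gene gucy2g encodes in mammals a cyclase of olfactory neurons, and it was at 1.2, 1.33 and 1.18 CPM at 0 ng/mL, 1.8, 1.73 and 1.9 at 250 ng/mL, 2.02, 1.62 and 1.1 at 750 ng/mL, and 1.67, 1.25 and 1.73 at 1295 ng/mL (log2 fold change 0.33, SE 0.26, adjusted p = 0.324). The gene cnga4, which in mammals encodes an olfactory channel subunit, averaged 1.95 ± 0.28 CPM at 0 ng/mL, 1.88 ± 0.44 at 250 ng/mL, 2.43 ± 0.67 at 750 ng/mL and 1.92 ± 1 at 1295 ng/mL (log2 fold change -0.03, SE 0.34, adjusted p = 0.947). For cnga5, with at most 4 counts in a library, no comparison was made.

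Rod and cone members fell to a similar extent on the median, but they differed in how the libraries spread. At 1295 ng/mL the median log2 fold change was -1.30 for the 11 rod members and -1.16 for the 13 cone members. Of these 11 of 11 and 12 of 13 fell, against 22.2% of all genes. The summed level of the rod members was 265.8, 224.6 and 363.5 CPM at 0 ng/mL, 372.3, 409.1 and 386 CPM at 250 ng/mL, 374.4, 354.2 and 406.8 CPM at 750 ng/mL, and 149.6, 145.2 and 143.9 CPM at 1295 ng/mL. The rod sums at 1295 ng/mL were nearly equal. The summed level of the cone members was 943.4, 751.8 and 1387 CPM at 0 ng/mL, 1434, 1550 and 1357 CPM at 250 ng/mL, 1374, 1302 and 1630 CPM at 750 ng/mL, and 598.3, 307.6 and 601.4 CPM at 1295 ng/mL. The cone sum of 1295 ng/mL replicate 2 was far below those of replicates 1 and 3. Without that library the cone median was -0.91 and 11 of 13 fell, while the rod median was -1.25 and 11 of 11 fell. Over all genes 3693 of 21770 fell in that fit.

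The transducin genes set the same library apart. The ratio of gnat2 to gnat1 reads was 3.21, 2.77 and 3.13 at 0 ng/mL, 3.5, 3.22 and 3.53 at 250 ng/mL, 3.35, 3.78 and 3.21 at 750 ng/mL, and 4.1, 2.34 and 4.11 at 1295 ng/mL. The lowest ratio of the 12 libraries was that of 1295 ng/mL replicate 2, and the highest were those of replicates 1 and 3 of that dose. The ratio of pde6c to pde6b reads, also of a cone to a rod gene, was 8.91, 4.79 and 8.93 at 1295 ng/mL and 7.61, 6.18 and 6.87 at 0 ng/mL, with the same order of replicates at the highest dose. Other cone to rod ratios at 1295 ng/mL were 4.17, 1.98 and 4.66 (gngt2b to gngt1) and 6.52, 1.76 and 9.06 (cnga3a to cnga1). They were 11.1, 3.91 and 9 for grk7a to grk1a and 5.81, 3.19 and 6.13 for arr3a to sagb. Replicate 2 was the lowest of all libraries in each, but replicates 1 and 3 were not both the highest. For arr3a to sagb they lay below every library of the other doses. With replicate 2 this far from replicates 1 and 3, a mean over the 3 libraries is not read here as a difference between rods and cones.

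**Figure D4:**
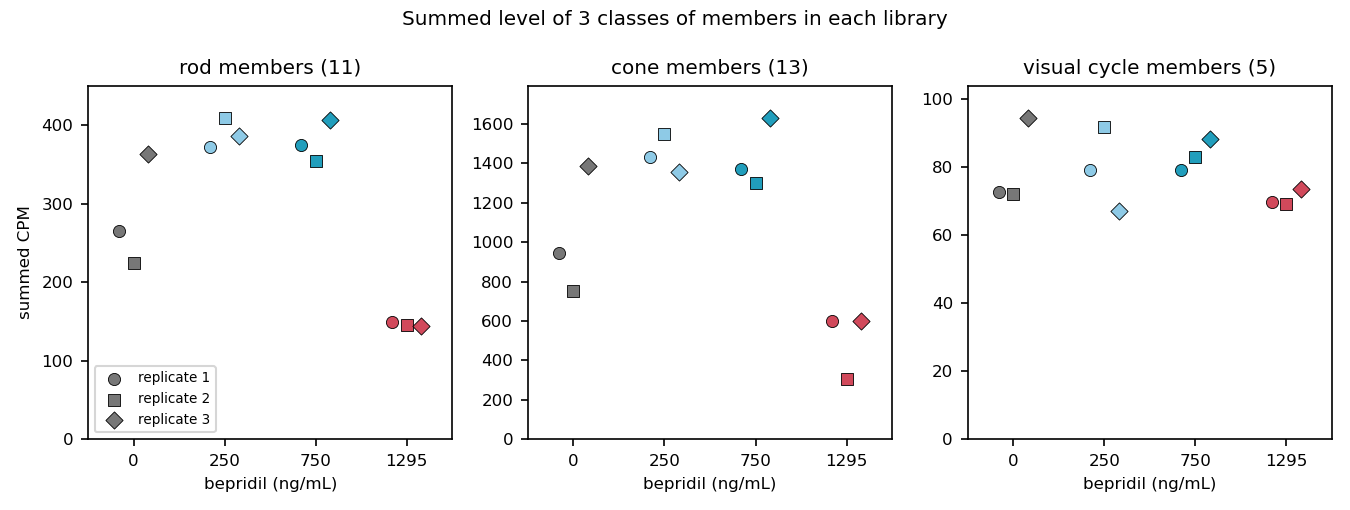
Summed CPM (vertical axes, starting at 0) of the 11 rod members, the 13 cone members and the 5 visual cycle members in each library, by bepridil dose in ng/mL and with a marker shape for each replicate. The rod sums at 1295 ng/mL lie between 143.9 and 149.6 CPM and the cone sums there at 307.6, 598.3 and 601.4 CPM. The visual cycle sums at each dose overlap the controls, while those at 1295 ng/mL lie below those at 750 ng/mL.

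**Figure D5:**
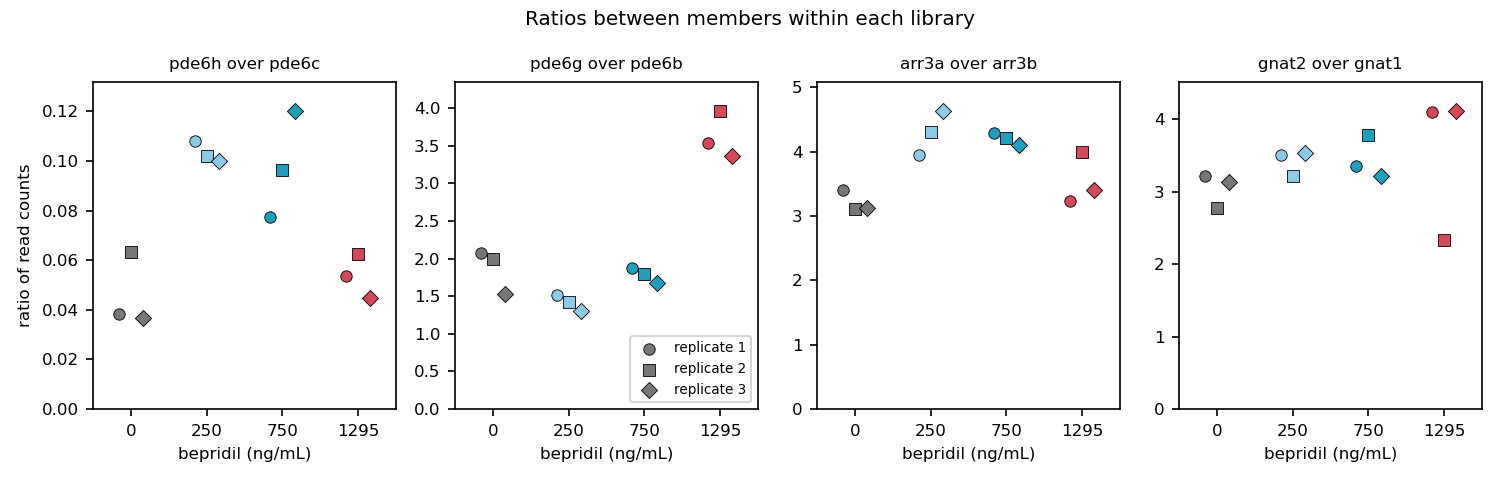
Ratio of the reads of 4 pairs of members within each library (vertical axes, starting at 0), by bepridil dose in ng/mL. The ratio of pde6h to pde6c is highest at 250 and 750 ng/mL, that of pde6g to pde6b is highest at 1295 ng/mL, and that of gnat2 to gnat1 at 1295 ng/mL is lowest in replicate 2 and highest in replicates 1 and 3.

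Between the lower doses no difference was detected. At 750 against 250 ng/mL, 0 of 54 members and 0 of all tested genes (0% called in either direction) passed in edgeR. At an unadjusted p under 0.05, 1 member was higher and 0 lower, while 648 of 21581 genes were higher and 1033 lower. DESeq2 called 0 members and 5 of all genes. The median of the members was 0.01. Between 750 and 1295 ng/mL the change was broad. At 1295 against 750 ng/mL, 46 of 54 members (85.2%) fell and 1 rose, while 28.7% of all genes fell and 23.4% rose. The gene that rose was rpe65b, and the members with no call were cnga4, gngt2a, guca1a, gucy2g, pde6d, rcvrnb and rpe65c. The levels compared here are not those of the controls, but the control libraries enter the shared fit through its spread and scaling. Of the 46 falls, 44 held in each fit that left out 1 library, while guca1g and rlbp1a did not hold. Of the members that rose at 750 ng/mL, pde6h and guca1e had the values -2.74 and -2.91 at 1295 against 750 ng/mL (adjusted p = 6.41e-07 and 2.06e-06). The others, pde6g and rom1b, had the values -0.94 and -1.23 (adjusted p = 6.41e-06 and 6.27e-05). The median of the photoreceptor members was -1.58. These members were picked for being high in the same 750 ng/mL libraries.

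Other genes of photoreceptors, taken from lists written from textbook knowledge, were measured beside the members. For comparison with the opsins and the structure and synapse genes, 22.2% of all genes fell and 18.8% rose at 1295 ng/mL. At 250 and 750 ng/mL 6.03% and 4.2% of all genes rose. Opsins, the light receptors at the head of the cascade, numbered 9 tested genes, of which 7 fell at 1295 ng/mL (77.8%, median -0.81), 3 rose at 250 ng/mL (33.3%, median 0.56) and 2 rose at 750 ng/mL (22.2%, median 0.54). The green cone opsin gene opn1mw2 was at 10.9, 19 and 15.7 CPM at 0 ng/mL, 52.8, 56.3 and 52.3 at 250 ng/mL, 48.5, 54.5 and 48.1 at 750 ng/mL, and 7.99, 13.5 and 8.1 at 1295 ng/mL. It rose by 1.83 at 250 ng/mL (SE 0.19, adjusted p = 7.9e-05) and 1.73 at 750 ng/mL (SE 0.19, adjusted p = 0.000254), with no overlap with the controls, and fell by 0.63 at 1295 ng/mL (SE 0.20, adjusted p = 0.022), where 1 library overlapped them. The ultraviolet cone opsin gene opn1sw1 had values of 0.67 and 0.70 that did not pass at 250 and 750 ng/mL and fell by 1.29 at 1295 ng/mL (SE 0.25, adjusted p = 0.000927). The rhodopsin-like gene rhol rose by 0.86 at 250 ng/mL (SE 0.19, adjusted p = 0.0101) and fell by 1.05 at 1295 ng/mL (SE 0.21, adjusted p = 0.00139).

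Genes of photoreceptor structure and synapse gave 67 tested genes, of which 42 fell (62.7%) and 1 rose at 1295 ng/mL (median -0.78), 13 rose at 250 ng/mL (19.4%, median 0.36) and 9 rose at 750 ng/mL (13.4%, median 0.33). The gene rp1l1b, whose mammalian relative encodes a protein of the outer segment axoneme, was at 4.23, 3.4 and 6.87 CPM at 0 ng/mL, 14.7, 14.4 and 13.2 at 250 ng/mL, 11.7, 10.8 and 7.43 at 750 ng/mL, and 1.61, 0.79 and 1.17 at 1295 ng/mL. It rose by 1.54 at 250 ng/mL (SE 0.23, adjusted p = 0.000862) and 1.04 at 750 ng/mL (SE 0.24, adjusted p = 0.0158) and fell by 2.01 at 1295 ng/mL (SE 0.31, adjusted p = 0.000185). Its duplicate rp1l1a had values of 0.89 at 250 ng/mL, 0.72 at 750 ng/mL and -1.63 at 1295 ng/mL, all of which passed. Of 27 photoreceptor transcription factor genes, 5 fell (18.5%, against 22.2% of all genes) and 3 rose (11.1%, against 18.8%) at 1295 ng/mL. Their median was -0.14, and 20 had negative values, as did 11059 of the 21581 tested genes. The 3 of this list with the smallest p in the joint test were rorab, mef2cb and prdm1a. The gene rorab, a nuclear receptor gene, fell by 0.52 at 1295 ng/mL (SE 0.11, adjusted p = 0.00173). The gene mef2cb, which is also used in muscle and heart, fell by 0.44 (SE 0.09, adjusted p = 0.00105). The gene prdm1a, which encodes a repressor used in photoreceptor development and in many other tissues, rose by 0.92 (SE 0.11, adjusted p = 3.74e-05).

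Markers of other cells of the eye did not all move with the members. The counts below are read against 22.2% of all genes that fell and 18.8% that rose at 1295 ng/mL. Of 22 tested bipolar cell markers, 9 fell (40.9%, median -0.38), and their summed level was 429.5 to 468 CPM at 1295 ng/mL and 466.5 to 623.7 CPM at 0 ng/mL. Of 32 amacrine, horizontal and ganglion cell markers, 14 fell (43.8%) and 1 rose (median -0.36), with sums of 983.5 to 1084 CPM at 1295 ng/mL and 1227 to 1563 CPM at 0 ng/mL. Among them gad2, which encodes an enzyme of GABA synthesis that is also used throughout the brain, fell by 1.44 (SE 0.11, adjusted p = 3.95e-06). Of 14 Müller glia markers outside the members, 5 rose (35.7%) and 3 fell (21.4%, median 0.07), and the sum of the whole list was 4626 to 5490 CPM at 1295 ng/mL and 2963 to 3265 CPM at 0 ng/mL. Such sums weigh the most highly counted genes most, and in whole larvae the reads of a marker cannot be assigned to its cell type. Of 21 pigment epithelium markers outside the members, 11 rose (52.4%) and 2 fell (9.52%, median 0.45), and the whole list summed to 2702 to 2979 CPM at 1295 ng/mL and 1375 to 1627 CPM at 0 ng/mL. Several of these genes are also expressed in skin pigment cells or the liver. Of 38 lens markers, 11 rose (28.9%) and 1 fell (2.63%, median 0.15), with sums of 3998 to 5314 CPM at 1295 ng/mL and 3243 to 3985 CPM at 0 ng/mL. Of 34 retinoid genes outside the rule, 8 rose (23.5%) and 6 fell (17.6%, median -0.05), and of 18 pineal genes 1 rose (5.56%) and 4 fell (22.2%). At 250 ng/mL, where 6.03% of all genes rose and 4.48% fell, the genes that rose were 3 of the bipolar list (13.6%), 2 of the amacrine, horizontal and ganglion cell list (6.25%), 1 of the Müller glia list (7.14%), 3 of the pigment epithelium list (14.3%), 5 of the lens list (13.2%), 6 of the retinoid list (17.6%), 1 of the pineal list (5.56%) and 4 photoreceptor transcription factor genes (14.8%). Those that fell were 1 of the Müller glia list (7.14%), 7 of the pigment epithelium list (33.3%), 3 of the retinoid list (8.82%) and 1 of the pineal list (5.56%). At 750 ng/mL, where 4.2% of all genes rose and 2.14% fell, the genes that rose were 4 of the bipolar list (18.2%), 4 of the amacrine, horizontal and ganglion cell list (12.5%), 2 of the Müller glia list (14.3%), 1 of the pigment epithelium list (4.76%), 12 of the lens list (31.6%), 6 of the retinoid list (17.6%) and 2 photoreceptor transcription factor genes (7.41%). Those that fell were 4 of the pigment epithelium list (19%) and 1 of the retinoid list (2.94%). With scaling by total counts alone the median of all genes at 1295 ng/mL was -0.272 rather than -0.02, a shift larger than the Müller glia and lens medians. The part of any of these cell types in the members' values was not tested.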

How the data were processed

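Messenger RNA was sequenced from 12 samples of pooled whole larvae. The tools named in the submitters' processing notes are Trimmomatic, HISAT2 and HTSeq, and the build is GRCz11. Neither their versions nor the annotation nor any use of strand in counting is given. What the authors deposited are raw read counts for each gene, not normalized by the authors as far as the whole numbers and unequal totals show. Per the labels' protocols the libraries came from a stranded kit.

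Samples were grouped by labelled dose. Within a dose no library repeated another: each pair of the same dose differed beyond counting noise, with a ratio of chi-square to its degrees of freedom of 3.69 to 16.08. Tests used R 4.3.3 and edgeR 4.0.16: filterByExpr on dose groups, TMM factors, 1 quasi-likelihood fit on all 12 libraries with dose as the only factor (8 residual degrees of freedom), and Benjamini-Hochberg adjustment over 21581 genes, called under 0.05. The prior count was 0.125 for log2 fold changes, and SE was taken as their absolute value over the square root of F. The coefficient of variation between replicates, from 1 dispersion shared by all tested genes, was 12.1%. Single members spread more or less than this. At 0 ng/mL arr3a was at 261 ± 80.3 CPM and rcvrnb at 4 ± 0.1 CPM (SD, n = 3 each). At the totals reached, counting error is small for well-counted genes but not for members near 1 CPM, such as guca1a and guca1d.

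Member names, cell classes and lists were chosen with earlier results of these data known. Levels in every library are given for the 18 members with the smallest p in the joint test. They are also given for members whose names differ from these only in the last letter. The rest above 1 CPM are given by dose means, and each list by up to 3 genes with the smallest joint p. Alternatives were other scalings and filters, DESeq2 1.42.0, limma-voom (limma 3.58.1), only the compared groups, a replicate block and leaving out each library. Sequences and coordinates were not used here.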

Additional observations from a re-analysis of the deposited data

How the results depend on the processing

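With 3 libraries per dose, the number of members called depended on single libraries, both controls and treated ones. Leaving out 1 library at a time gave 3 to 25 members higher at 250 against 0 ng/mL (8 with all libraries), 0 to 1 lower there, and 1 to 19 higher at 750 ng/mL (4 with all). At 1295 ng/mL it gave 29 to 43 lower (40 with all), and at 1295 against 750 ng/mL 44 to 47 lower and 1 higher. The joint test called 43 to 47 members. Over all genes these fits called 1069 to 3051 at 250 ng/mL (2269 with all), 631 to 1568 at 750 ng/mL (1367), 6519 to 9607 at 1295 ng/mL (8848), 0 to 1 at 750 against 250 ng/mL, 9599 to 11452 at 1295 against 750 ng/mL (11239), and 10049 to 12409 in the joint test (11918). With control replicate 3 and 1295 ng/mL replicate 2 both left out, chosen after the data had been seen, 30 members were higher and 0 lower at 250 ng/mL, 27 higher at 750 ng/mL and 24 lower at 1295 ng/mL, with 4784 of all genes called there. In that fit 1199 of all genes were higher at 250 ng/mL, 869 higher at 750 ng/mL and 2746 lower at 1295 ng/mL. Scaling by total counts alone gave 2 members higher at 750 ng/mL, 47 lower at 1295 ng/mL and 0 higher at 1295 against 750 ng/mL. Of all 21581 genes, that scaling called 766 higher at 750 ng/mL and 8269 lower at 1295 ng/mL (4790 with TMM). It put 14.5% of calls over all genes on the higher side at 1295 against 0 ng/mL (45.9% with TMM) and 21.6% at 1295 against 750 ng/mL (45% with TMM), where the median of all genes was -0.288. With DESeq2 the higher share at 250 ng/mL was 45% (57.4% in edgeR), and 5 of all genes were called at 750 against 250 ng/mL. Fitting only the compared groups gave 0 members lower at 250 ng/mL and 1 higher at 750 ng/mL. Over all genes it called 838 lower at 250 ng/mL and 813 at 750 ng/mL, 475 of them higher. The causes of these shifts were not tested. A replicate block gave 10 members higher at 250 ng/mL and 40 lower at 1295 ng/mL. With it 1940 of all genes were called at 250 ng/mL, 1171 of them higher, and 4586 were lower at 1295 ng/mL. Of 18 pairs of libraries with the same number, 3 had deviations correlated above 0.1 (r from -0.197 to 0.13), and a pair with different numbers reached 0.23. The numbers are therefore used here only to name the samples, and the check cannot exclude a shared clutch or batch. Over single members, doses and alternatives, 5694 of 5924 values kept their side of the threshold, 130 gained a call, 100 lost one and 0 called values changed sign. Among 3599 values with no call in either fit, 140 changed sign.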

Other observations

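A gene outside the naming rule resembled pde6h at the lower doses. The gene listed as zgc:112320, which RefSeq gives as a synonym of pde6ga, a PDE6 gamma subunit gene, was looked up after the values of pde6h had been seen. It was at 0.743, 0.91 and 0.845 CPM at 0 ng/mL, 2.33, 1.85 and 2.52 at 250 ng/mL, 2.02, 1.56 and 2.74 at 750 ng/mL, and 0.805, 0.461 and 0.494 at 1295 ng/mL. All libraries at 250 and 750 ng/mL lay above all controls. The calls of this gene, made at low levels, were not checked in fits that left out 1 library or in the other alternatives. It rose by 1.42 on the log2 scale at 250 ng/mL (edgeR, SE 0.28, adjusted p = 0.00509) and by 1.33 at 750 ng/mL (SE 0.28, adjusted p = 0.0106), and its value of -0.49 at 1295 ng/mL did not pass (SE 0.35, adjusted p = 0.27).

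The names in the table are partly older ones. By symbol, 46 of the 55 members matched RefSeq's zebrafish gene table, 7 matched as synonyms and 2 had no match. Under the newer names pde6g is pde6gb, pde6h is pde6ha, guca1e is guca1ab.1 and gc3 is gucy2d. Several members therefore have close duplicates in the genome, and how reads shared between duplicates were counted is not given in the sources used here.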
